A study of Mus musculus with 11 samples.

Results

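The ion channel receptors that neurotransmitters open directly were examined in retinas of mice at P10 (postnatal day 10). Their members were chosen by gene symbol alone, as every gene of the count table named for a subunit of a glutamate, GABA, glycine or nicotinic acetylcholine receptor channel. There were 50 such genes of 25311 in the table. Of these, 18 encode glutamate receptor subunits (4 AMPA, 5 kainate, 2 delta and 7 NMDA), 17 encode GABA receptor subunits (14 GABA-A and 3 rho), 4 encode glycine receptor subunits and 11 encode nicotinic subunits. Between 14 (Chrna7) and 6170 (Gria2) molecules of each member were counted over all cells. A count here is a UMI, a tag that marks 1 captured RNA molecule near its 3' end, so levels of different genes were not divided by gene length.

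The study profiled retinal cells of 11 C57BL/6J mice by droplet-based single-cell RNA sequencing (inDrop), with the anterior segment and the retinal pigment epithelium removed before papain dissociation. PBS mice (n = 3) received the vehicle from birth, and their STZ littermates (n = 3) received streptozotocin, a toxin of insulin-producing beta cells that raises blood glucose and serves as a model of Phase I retinopathy of prematurity (Phase I ROP). All pups of the diet groups were also STZ-treated: these littermates were nursed in separate cages by dams fed a diet enriched in ω-3 (STZ ω-3, n = 2) or ω-6 (STZ ω-6, n = 3) long-chain polyunsaturated fatty acids (LCPUFAs). Phase I ROP vs. control shows how the members differed with STZ, and setting the ω-6 diet against the ω-3 diet shows how they differed with feeding among STZ-treated pups. The paper does not say how many dams nursed each diet group, so diet cannot be told apart from dam and cage.

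Cells were grouped into classes from markers that include no member, and the members themselves were left out of the genes used for clustering. Of 20033 cells clustered, 16952 were named: 3306 bipolar and 3247 amacrine cells, 7479 rods and 1096 cones, 1394 Müller glia, and small numbers of 6 rarer types. Each name means cells that resemble that type by their markers. Bipolar cells were divided into 2528 ON bipolar and 778 cone bipolar cells, and amacrine cells into 1470 GABAergic, 748 glycinergic, 898 Ebf3-positive and 131 starburst cells. Cone bipolar here means the cluster with the markers Scgn, Vsx1 and Fezf2 among its leading genes. Whether the ON bipolar cluster also holds cone bipolar cells was not tested. Cones and rods were few in PBS libraries (13, 13 and 46 cones, and 150, 96 and 299 rods). Libraries held 2563064 to 6516478 UMIs, and 1154 barcodes occurred in more than 1 library. The 3 PBS libraries stood apart from all 8 libraries of STZ-treated mice: Rn7sk was at 193 to 290 CPM (counts per 1000000 UMIs) against 1.15 to 16.2 and Fosb at 0.39 to 0.89 against 116 to 231. Treatment with STZ and the handling of those PBS libraries cannot be told apart in any STZ vs. PBS value below.

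Photoreceptors and most bipolar cells release glutamate, while most amacrine cells release GABA or glycine, and starburst amacrine cells release acetylcholine as well. Glutamate opens AMPA, kainate and NMDA channels, which excite the cell. GABA and glycine open chloride channels built of 5 subunits, and the rho subunits form the GABA channels typical of bipolar cell terminals. The subunits a cell makes set the speed, affinity and drug response of its synapses, and several of them are exchanged while the retina matures.

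Some subunits stood far higher in a single population, while others, such as Gabra2 and Gria2, were among the 5 highest in several. Cone bipolar cells had the highest level of any member in any large population, with Grik1 (a kainate receptor subunit used at OFF bipolar dendrites) at 876 ± 239 CPM (mean ± SD, n = 11 mice of the 4 groups), from 528 in the lowest mouse to 1237 in the highest. Grik1 was at 41.6 ± 15.7 CPM in ON bipolar cells, the next population, and the ranges did not overlap. Cone bipolar cells also held Glra1, an adult-type glycine receptor subunit, at 157 ± 68.7 CPM against 10.1 in ON bipolar cells. Chrna6, a nicotinic subunit, was at 83.1 ± 43.1 CPM in cone bipolar cells and at 12.6 or less in the 7 other large populations. These values describe the populations, and class levels were not tested.

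Both kinds of bipolar cell carried rho subunits at high levels. Gabrr1, which forms rho receptors, was at 260 ± 84.6 CPM in ON bipolar and 306 ± 97.7 in cone bipolar cells, and Gabrr3 at 122 ± 46.4 and 190 ± 64.4. For Gabrr1 the 2 populations differed by less than their SD, and for Gabrr3 by slightly more. Gabrr2 was at 33.7 CPM in ON bipolar cells and at 5.28 in cone bipolar cells, the next highest. All 3 rho subunits were at 12.6 CPM or less in every amacrine population and in Müller glia.

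The amacrine populations differed from each other in glycine and kainate subunits. Glra2 was highest in Ebf3-positive amacrine cells (223 ± 90.0 CPM) and made up 99.3% ± 1.34 of the UMIs of Glra1, Glra2 and Glra3 there. Glra3 was highest in glycinergic amacrine cells (101 ± 71.7 CPM), the next being GABAergic amacrine cells at 33.4. Grik2 was at 194 ± 74.4 CPM in Ebf3-positive and 113 ± 43.9 in glycinergic cells, a difference about as large as the SD. Gabrg3, a gamma subunit of GABA-A receptors, was at 89.3 ± 29.2 CPM in glycinergic cells and at 18.5 or less in the other large populations. Gria2, the AMPA subunit that limits calcium entry, was highest in GABAergic amacrine cells at 380 ± 121 CPM, and Gria3 in glycinergic cells at 200 ± 73.4. Gabra2 was likewise highest in GABAergic amacrine cells (265 ± 75.8 CPM). Chrnb3 and Chrna2 were highest in GABAergic amacrine cells among the large populations, at 38.9 and 22.1 CPM. Chrna4, which pairs with Chrnb2 in the common brain nicotinic receptor, was at 63.3 ± 38.3 CPM in cone bipolar and 51.8 ± 22.7 in glycinergic amacrine cells, a difference smaller than the SD.

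Photoreceptors and Müller glia had few members at high levels. Chrnb4, a nicotinic beta subunit, stood at 142 ± 34.5 CPM in cones (85.2 to 193 over mice) and at 21.8 in rods, the next population. In rods Grin1 was at 12.5 to 255 CPM over mice with a median of 21.6, Grik5 at 34.1 and Chrna1 at 31.2. Müller glia, the radial glia of the retina, had Glrb, the beta subunit of glycine receptors, at 109 ± 23.5 CPM and Gria4 at 77.6 ± 41.3. Gria4 made up 62.5% ± 17.5 of the AMPA subunit UMIs in Müller glia, against 9.12% ± 3.99 in bipolar cells. Chrna1, the subunit of muscle nicotinic receptors, lay between 15.1 and 31.2 CPM in all 8 large populations, and Gabra2 between 72.3 and 87.2 CPM in rods, cones, Müller glia and both bipolar populations. Free RNA in the droplets gives unlike cell types like levels, and its part in these values was not tested.

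**Figure D1:**
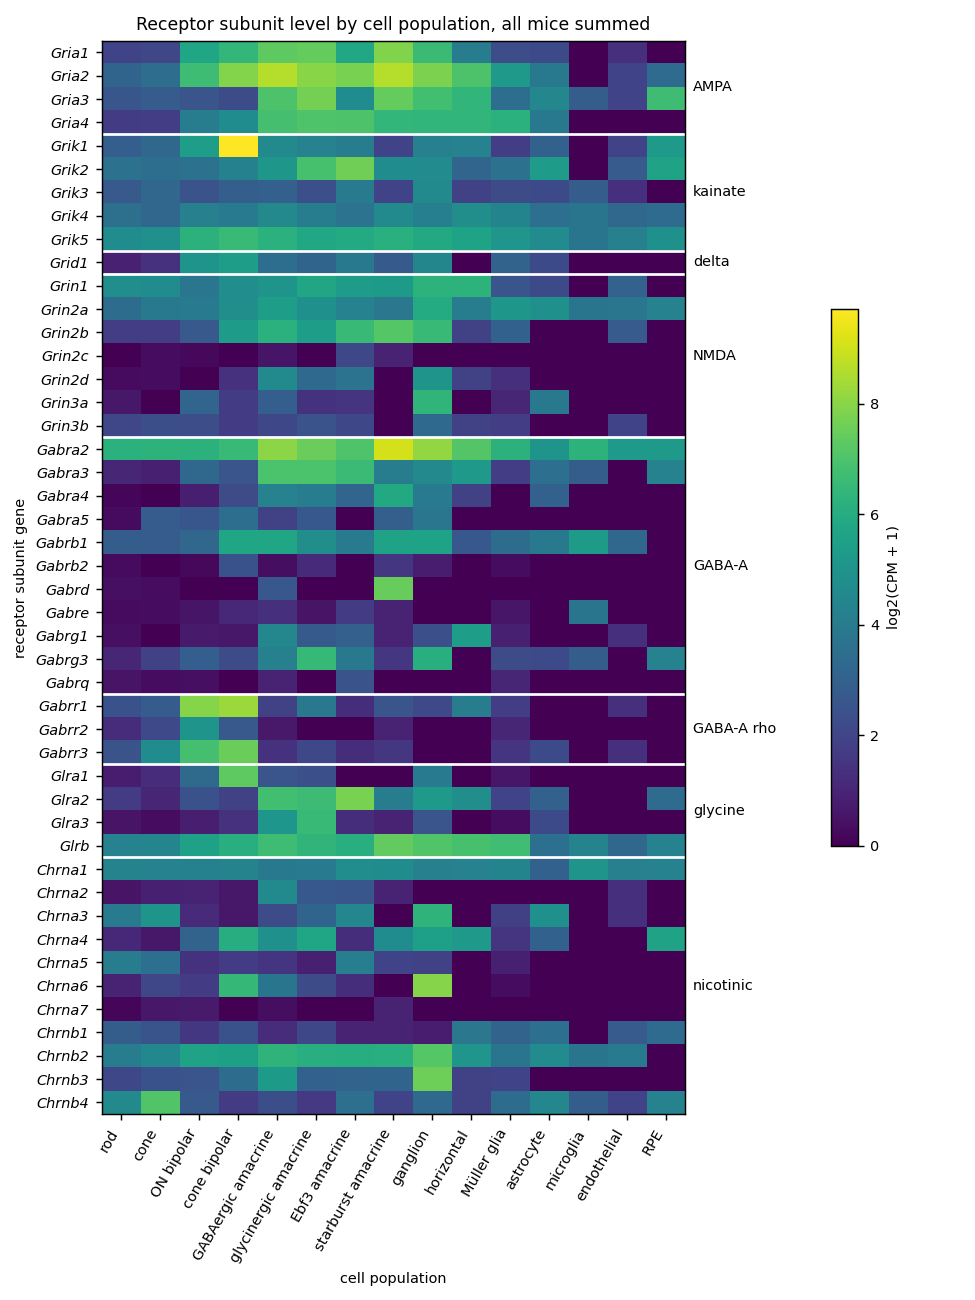
Levels of 46 members (rows, grouped by family) in 15 marker-defined populations (columns), coloured by log2(CPM + 1) of the UMIs summed over 11 mice. Grik1 and Glra1 stand out in cone bipolar cells, Gabrd in starburst amacrine cells, Chrnb4 in cones and Chrna6 and Chrnb3 in retinal ganglion cells.

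The rarer neurons are given as UMIs summed over mice, with exact Poisson 95% intervals that cover counting error only. Starburst amacrine cells held 182 UMIs of Gabrd, the delta subunit of GABA receptors outside synapses, or 176 CPM (151 to 204), while Gabrd had no UMI in ON bipolar, cone bipolar, glycinergic, Ebf3-positive or Müller cells. Gabra2 was at 539 CPM (495 to 585) in starburst cells and made up 85.8% of their alpha subunit UMIs (exact binomial interval 82.9 to 88.4). Grin2b, the NMDA subunit of immature synapses, had 147 of the 161 Grin2a and Grin2b UMIs of starburst cells. The 100 retinal ganglion cells, which carry the output of the retina, were highest for Chrna6 at 246 CPM (221 to 273), Chrnb3 at 188 CPM (166 to 211), Chrnb2 at 140 CPM (121 to 160), Grin3a at 81.0 CPM (67.0 to 97.0) and Chrna3 at 78.9 CPM (65.1 to 94.8). The 32 horizontal cells were highest for Grin1 at 77.7 CPM, on 29 UMIs (52.0 to 112). Of the members, 5 had fewer than 50 UMIs in all: Chrna7, Grin2c, Gabrb2, Gabre and Gabrq.

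Several members lie side by side in the genome (GRCm38, GENCODE M21 gene limits). Chrnb3 (chr8:27368711-27399730) ends 3481 bases before Chrna6 (chr8:27403212-27413944), and both were highest in retinal ganglion cells. Chrna5, Chrna3 and Chrnb4 lie within chr9:54980880-55048779, with 2331 and 1591 bases between neighbours. Among the large populations, Chrna3 and Chrnb4 were both highest in cones (30.0 and 142 CPM), whereas Chrna5 was highest in Ebf3-positive amacrine cells (15.4 CPM). Gabrr2 (chr4:33062999-33095865) and Gabrr1 (chr4:33132521-33163588) were both highest in bipolar cells.

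Subunit mixtures within a receptor family also differed between populations. Gria2 made up 61.6% ± 4.22 of AMPA subunit UMIs in bipolar cells and 44.5% ± 5.65 in amacrine cells (n = 11 mice). In Ebf3-positive amacrine cells Gabra2 (52.5% ± 12.7) and Gabra3 (42.3% ± 12.9) made up most of the GABA-A alpha subunit UMIs. In cone bipolar cells 289 of 297 glycine alpha UMIs were Glra1. In glycinergic amacrine cells Glra2 and Glra3 had like shares, 50.9% ± 14.8 and 47.2% ± 16.6.

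**Figure D2:**
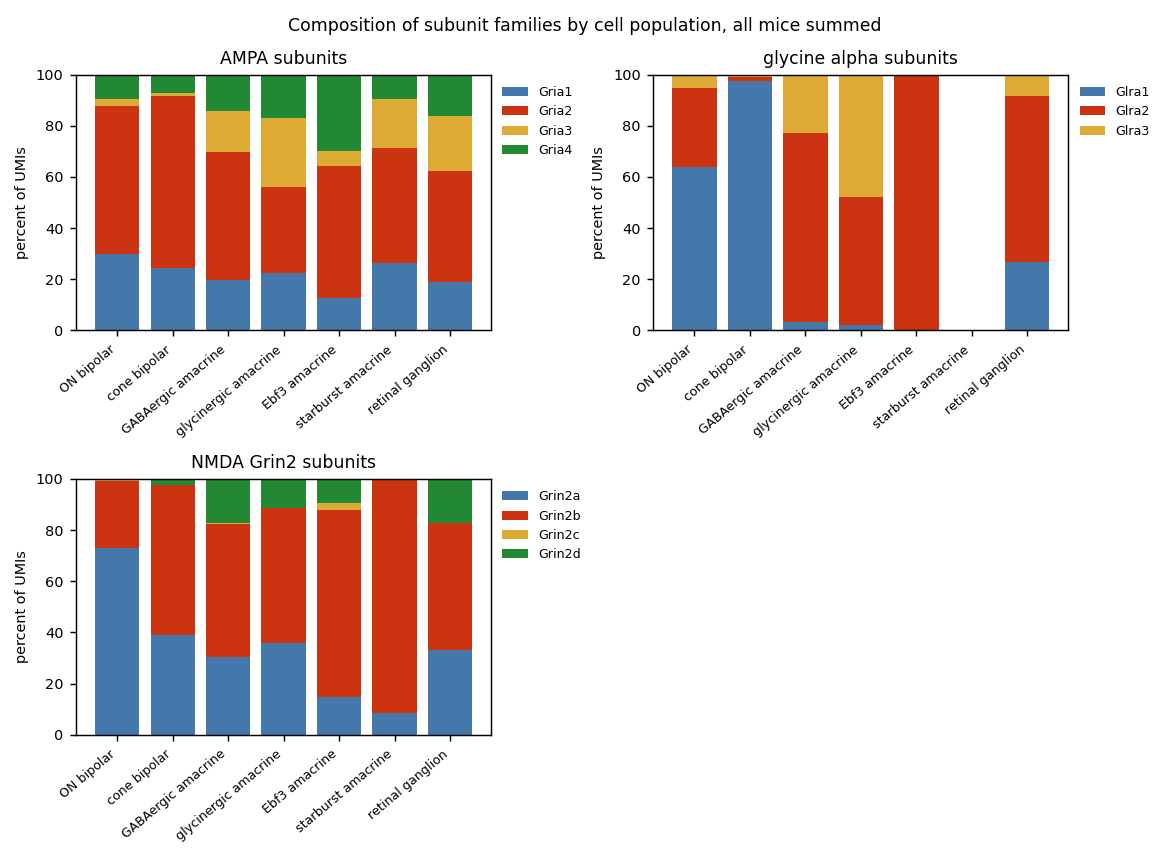
Percent of UMIs that each subunit contributed within its family (AMPA, glycine alpha and Grin2 subunits) in 7 neuronal populations, UMIs summed over mice. Glra1 fills the glycine bar of cone bipolar cells and Glra2 that of Ebf3-positive amacrine cells; the starburst bar for glycine subunits is not drawn because it had under 20 UMIs.

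Phase I ROP vs. control was tested on UMI sums per mouse and class, by the quasi-likelihood test of edgeR, and p-values were adjusted by Benjamini-Hochberg over all genes of the class. Values per mouse are TMM-scaled CPM (CPM corrected for composition), and a member was called at an adjusted p under 0.05. Of the 50 members, 39 had enough UMIs to be tested in at least 1 class. A gene counted higher in a class may reflect more cells of a subtype or more RNA per cell, which summed counts cannot tell apart.

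In bipolar cells, 10 of the 23 members tested were called (43.5%), 8 higher and 2 lower in STZ mice. The share of all genes called there was 44.9% (21.2% higher and 23.7% lower), so the members were called about as often as other genes. Their median log2 change was 0.37, against 0.02 over all 9640 genes. By transmitter, 4 of 9 glutamate, 3 of 8 GABA, 1 of 2 glycine and 2 of 4 nicotinic members were called. Of these, Glra1 and Chrna1 passed the filter on low counts only through the group where they were high, which fixed their direction. Sums of markers of other cells, in CPM without TMM scaling, moved too. The 11 amacrine markers summed to 364 to 414 CPM in PBS and 682 to 747 in STZ bipolar cells, and the 10 rod markers to 771 to 1485 and 1306 to 2361. In the TMM-scaled fit the 5 amacrine markers tested were mixed, 3 higher and 2 lower (median log2 0.045, 2 called, both higher). The 10 rod markers were 6 higher and 4 lower (median log2 0.214), with 3 called higher and 2 called lower. Their part in the counts was not tested.

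Glra1 (chr11:55514238-55608198) rose most. It was at 16.5, 17.8 and 11.6 scaled CPM in the PBS mice and at 66.6, 76.9 and 58.1 in the STZ mice. All STZ mice lay above all PBS mice, by 2.14 on the log2 scale (SE 0.315, adjusted p = 0.000102). The PBS mice alone were too low in Glra1 to pass the filter on low counts. It was tested only through the STZ mice, where it was high, which fixed its direction. The mice on the diets, which also received STZ, lay between 23.8 and 57.7. Within cone bipolar cells alone, Glra1 also rose, by 1.73 (SE 0.362, adjusted p = 0.00241). Whether the same limit held in that fit was not tested. There the background was 31.9% of genes called.

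Among the rho subunits, Gabrr1 was at 227, 268 and 232 scaled CPM in PBS and 293, 386 and 328 in STZ bipolar cells (log2 0.48, SE 0.148, adjusted p = 0.0174). Gabrr3 was at 123, 98.5 and 143 in PBS and 150, 182 and 201 in STZ (log2 0.55, SE 0.186, adjusted p = 0.0253). The Gabrr1 call was lost without PBS replicate 1 or 3 or STZ replicate 2 (log2 0.37 to 0.43, adjusted p = 0.0529 to 0.0959), and the Gabrr3 call without PBS replicate 1 or 2 or STZ replicate 2 or 3 (log2 0.40 to 0.54, adjusted p = 0.0698 to 0.113). Gabrr2 was not called (31.4 ± 5.79 in PBS and 34.9 ± 11.2 in STZ).

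The AMPA subunits Gria1 and Gria2 both rose. Gria1 was at 41.9, 48.5 and 28.3 scaled CPM in PBS and 79.0, 91.2 and 97.8 in STZ (log2 1.19, SE 0.256, adjusted p = 0.00183). Gria2 (chr3:80681450-80802835) was at 123, 85.6 and 104 in PBS and 180, 175 and 165 in STZ (log2 0.74, SE 0.183, adjusted p = 0.00482). Neither overlapped between the groups. Both had higher mean levels in GABAergic and glycinergic amacrine cells than in either bipolar population. For Gria2 the gap was small, at 242.9 CPM in glycinergic amacrine and 232.5 in cone bipolar cells. The part of amacrine RNA in these values was not tested.

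Among the kainate subunits, Grik1 and Grik5 moved in opposite directions. Grik1 (chr16:87895900-88290265) was at 159, 160 and 207 scaled CPM in PBS and 327, 333 and 261 in STZ (log2 0.81, SE 0.164, adjusted p = 0.00121). Cone bipolar cells, which carry most Grik1, made up 21.1% ± 4.64 of bipolar cells in PBS and 28.3% ± 2.08 in STZ mice (n = 3 each). Within cone bipolar cells alone Grik1 was not called (832 ± 200 and 1076 ± 52.6, log2 0.53, adjusted p = 0.0543). Grik5 (chr7:25009849-25072346), the high-affinity partner subunit of kainate receptors, was at 129, 189 and 112 in PBS and 57.3, 46.5 and 51.0 in STZ, a fall of 1.45 on the log2 scale (SE 0.24, adjusted p = 0.000269). Every mouse on a diet was at 58.6 to 67.4, below every PBS mouse. Grik5 also fell within cone bipolar cells, from 219 ± 59.0 to 53.1 ± 19.4.

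Of the nicotinic members, Chrnb2 (chr3:89746195-89764632), the common neuronal beta subunit, was at 20.9, 25.9 and 34.7 scaled CPM in PBS and 60.4, 46.5 and 62.4 in STZ bipolar cells (log2 1.05, SE 0.298, adjusted p = 0.0103). Chrna1 was at 31.4, 58.2 and 38.6 in PBS and 18.6, 3.58 and 4.25 in STZ (log2 -2.22, SE 0.504, adjusted p = 0.00263). Chrna1 had 2 to 36 UMIs per mouse behind these values. The STZ mice alone were too low in Chrna1 to pass the filter on low counts. It was tested only through the PBS mice, where it was high, which fixed its direction. Chrnb2 overlaps Adar on the other strand, and the sources used here do not say whether reads were counted by strand.

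**Figure D3:**
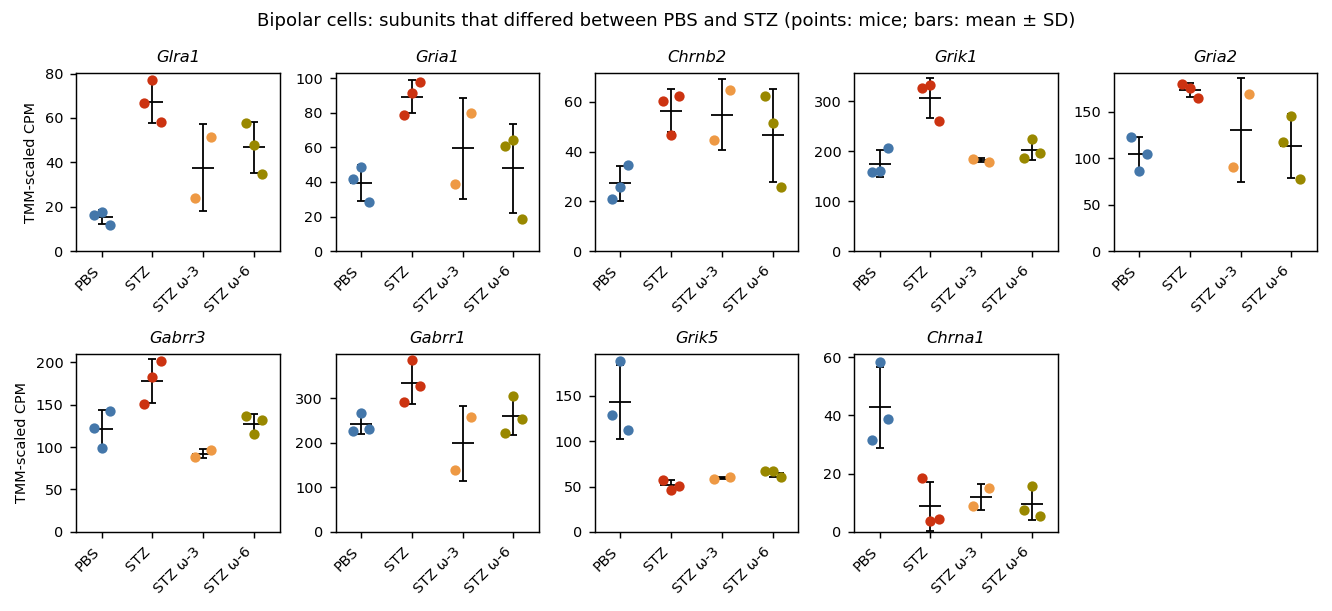
TMM-scaled CPM of 9 called members in bipolar cells, 1 point per mouse in PBS (n = 3), STZ (n = 3), STZ ω-3 (n = 2) and STZ ω-6 (n = 3), with bars at the mean ± SD. Grik5 and Chrna1 are lower in the STZ than in the PBS mice, and the other members drawn are higher.

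In amacrine cells, 7 of the 32 members tested were called (21.9%), 5 higher and 2 lower, where 38.2% of all genes were called (17.9% higher and 20.3% lower). The count was 4 without STZ replicate 1 and 4 without STZ replicate 2. Scaling by total UMIs instead of TMM raised the median change of all genes by 0.35 here (by 0.41 in bipolar cells, 0.28 in cones, 0.25 in rods and 0.16 in Müller glia), and the split became 10 higher and 0 lower. Summed rod markers were at 227 to 332 CPM in PBS and 943 to 1356 in STZ amacrine cells, and bipolar markers at 209 to 420 and 301 to 469. Their part in the changes was not tested.

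All 4 glutamate members called were higher in STZ mice. Gria2 was at 211, 207 and 163 scaled CPM in PBS and 314, 383 and 387 in STZ amacrine cells (log2 0.87, SE 0.144, adjusted p = 0.000377). Gria1 was at 92.9, 108 and 96.3 in PBS and 149, 195 and 147 in STZ (log2 0.69, SE 0.17, adjusted p = 0.00539). Neither overlapped, and all 5 mice on the diets lay above the PBS range for both genes. Grik2 was at 57.6, 32.3 and 69.8 in PBS and 123, 89.9 and 86.6 in STZ (log2 0.89, SE 0.254, adjusted p = 0.013). Grin1, the NMDA subunit required in every NMDA receptor, was at 14.1, 24.0 and 26.5 in PBS and 38.6, 48.2 and 34.3 in STZ (log2 0.88, SE 0.307, adjusted p = 0.034). The Grik2 call was lost without PBS replicate 2 (log2 0.61, adjusted p = 0.0554) or STZ replicate 1 (log2 0.71, adjusted p = 0.0658). The Grin1 call was lost without PBS replicate 1, STZ replicate 1 or STZ replicate 2 (log2 0.63 to 0.91, adjusted p = 0.0641 to 0.142) and with DESeq2 (adjusted p = 0.0833).

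Gabra2 (chr5:70957597-71095849), the alpha subunit of many amacrine synapses, was the only GABA member called. It was at 269, 365 and 301 scaled CPM in PBS and 196, 201 and 218 in STZ, a fall of 0.63 on the log2 scale (SE 0.142, adjusted p = 0.00306). Scaled by total UMIs the difference was -0.28 and not called (adjusted p = 0.123). Chrnb2 was at 52.9, 25.1 and 55.8 in PBS and 79.4, 88.9 and 84.7 in STZ (log2 0.89, SE 0.254, adjusted p = 0.0124), a call lost without PBS replicate 2 (log2 0.59, adjusted p = 0.0515) or STZ replicate 2 (log2 0.86, adjusted p = 0.0517). Chrna1 was at 69.4, 28.7 and 14.0 in PBS and 19.8, 9.64 and 17.1 in STZ, so that the groups overlapped (log2 -1.31, SE 0.476, adjusted p = 0.0416). Without PBS replicate 1 the Chrna1 difference was -0.51 and not called (adjusted p = 0.419), and it was not called without any 1 STZ mouse either (-1.51 to -1.06, adjusted p = 0.0533 to 0.161). None of the 3 glycine members tested was called (Glra2 was at 91.3 ± 20.5 and 121 ± 14.2, Glrb at 118 ± 11.02 and 91.1 ± 8.66, and Glra3 at 40.6 ± 37.8 and 45.1 ± 6.14).

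**Figure D4:**
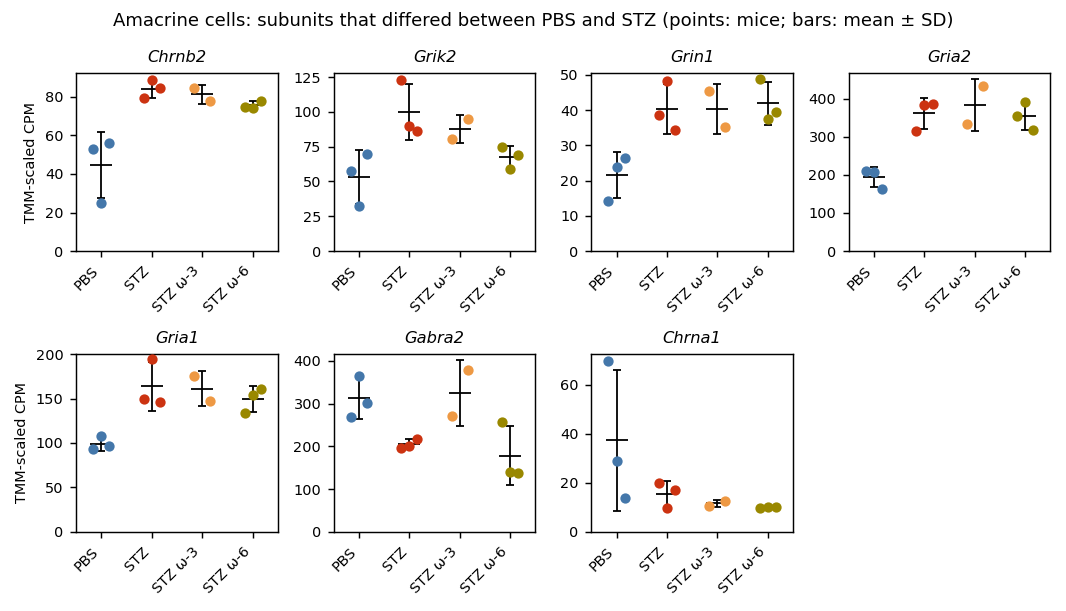
TMM-scaled CPM of the 7 called members in amacrine cells, 1 point per mouse in the 4 groups, with bars at the mean ± SD. Gria1 and Gria2 are higher in all 8 STZ-treated mice than in the 3 PBS mice, while the PBS points of Chrna1 spread from 14.0 to 69.4.

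The amacrine subtypes were also fitted alone. Gria2 rose in all 3 of them, by 0.79 in GABAergic (SE 0.175), 1.26 in glycinergic (SE 0.277) and 1.08 in Ebf3-positive cells (SE 0.245), with adjusted p-values of 0.00343, 0.00298 and 0.00529. Grin2b rose in GABAergic cells from 45.5 ± 10.4 to 87.1 ± 17.6 scaled CPM (log2 0.95, adjusted p = 0.0198). Gria3 rose in glycinergic cells from 149 ± 26.6 to 251 ± 48.7 (log2 0.84, adjusted p = 0.0266). Glra2 rose in Ebf3-positive cells from 150 ± 30.5 to 267 ± 62.3 (log2 0.91, adjusted p = 0.0232). The background share of genes called was 30.3% in GABAergic, 29.2% in glycinergic and 31.9% in Ebf3-positive cells, and the members called were 4 of 27, 5 of 15 and 4 of 13. Glycinergic cells made up 18.2% ± 1.23 of amacrine cells in PBS and 24.4% ± 3.63 in STZ mice. No test compared 1 subtype with another.

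Whether a member's STZ change differed between amacrine and bipolar cells was tested in a joint fit. Of 37 members tested, 1 was called, against 1.74% of all genes. Grik5 changed by 1.81 more in amacrine than in bipolar cells on the log2 scale (SE 0.367, adjusted p = 0.00967). It was at 42.3, 47.9 and 86.5 scaled CPM in PBS and 83.5, 77.1 and 52.3 in STZ amacrine cells, which overlapped. The call was lost without any 1 STZ mouse (1.46 to 1.80 on the log2 scale, adjusted p = 0.0657 to 0.208).

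The promoters of the members were read for short motifs in the 250 bases before the start site (RefSeq, GRCm38.p6, both strands). Promoters were found for 34 of the 50 members, 39 promoters in all. The RE1 motif, searched with at most 2 mismatches, was in 1 member promoter, that of Gria2, and in 13 of all 32851 promoters (0.04%). The short cyclic AMP response sequence TGACG was in 5 member promoters, those of Chrnb2, Chrna5, Chrnb1, Gabrr1 and Grin1 (12.8%), and in 17.77% of all. The AP-1 motif TGANTCA was in those of Chrna1 and Grin3b (5.1%), and in 6.75% of all. The full cyclic AMP motif TGACGTCA, which contains TGACG, and the EGR motif GCGTGGGCG were in 0 member promoters, and in 1.55% and 0.54% of all. Shown are the 3 members called in both bipolar and amacrine cells whose promoter held a match, 5′ to 3′ along the strand of the gene (minus in all 3), with the match in capitals. The capitals begin 174 bases before the start site in Gria2 (RE1 with 2 mismatches, reverse strand, chr3:80802836-80803085), 148 in Chrnb2 (TGACG, reverse strand, chr3:89764633-89764882) and 211 in Chrna1 (AP-1, chr2:73580339-73580588). A match is a run of letters and does not show that a factor binds there.
Gria2: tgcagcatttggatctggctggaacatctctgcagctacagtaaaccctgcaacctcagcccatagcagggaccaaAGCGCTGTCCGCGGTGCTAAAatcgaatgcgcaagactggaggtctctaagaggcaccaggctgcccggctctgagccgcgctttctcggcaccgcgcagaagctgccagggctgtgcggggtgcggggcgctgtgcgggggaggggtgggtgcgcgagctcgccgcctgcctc
Chrnb2: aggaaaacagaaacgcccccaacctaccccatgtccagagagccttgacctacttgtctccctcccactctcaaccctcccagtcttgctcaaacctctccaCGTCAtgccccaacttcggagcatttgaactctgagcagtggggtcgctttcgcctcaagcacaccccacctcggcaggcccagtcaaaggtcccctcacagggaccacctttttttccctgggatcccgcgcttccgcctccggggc
Chrna1: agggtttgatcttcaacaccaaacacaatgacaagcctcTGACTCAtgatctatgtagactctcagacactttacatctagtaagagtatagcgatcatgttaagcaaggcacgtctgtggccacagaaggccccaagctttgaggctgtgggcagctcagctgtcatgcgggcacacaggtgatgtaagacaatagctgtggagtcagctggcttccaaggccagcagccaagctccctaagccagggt

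In rods, 7 of the 7 members tested were lower in STZ mice, where 37.2% of all genes were called and 18.7% were lower. Members low in STZ rods, such as Gabrr1 and Gria2, passed the filter on low counts only through the PBS group where they were high, which fixed their direction. Gabra2 had enough UMIs in STZ rods to pass on those mice alone, so its direction was not fixed in this way. The rod values are given as a description and say nothing of the other 43. Gabrr1 was at 38.4, 30.8 and 39.1 scaled CPM in PBS and 6.00, 5.54 and 3.02 in STZ rods (log2 -3.003). Gria2 was at 32.9, 46.2 and 39.1 in PBS and 6.00, 14.8 and 8.06 in STZ (log2 -2.18). For Chrna1 and Gabra2 the differences were -1.99 and -0.94 on the log2 scale. The Gabra2 call was lost without PBS replicate 3 or any 1 STZ mouse (log2 -0.98 to -0.64, adjusted p = 0.0647 to 0.23). Between 21 and 58 UMIs stood behind each PBS value of these 7 genes summed over the 3 mice.

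Bipolar markers moved with these values. The 12 bipolar markers summed to 457 to 893 CPM in PBS rods and 193 to 200 in STZ rods, and the 11 amacrine markers to 327 to 447 and 276 to 378. Grm6, the glutamate receptor of ON bipolar dendrites, was at 54.4 ± 15.1 scaled CPM in PBS rods and 2.30 ± 1.27 in STZ rods (log2 -4.56, adjusted p = 8.31e-06). Grm6 too could pass the filter on low counts only through the PBS mice, which fixed its direction. When rods with any UMI of those markers were left out, 286 of 545 PBS rods and 1642 of 2560 STZ rods remained. Then 1 member could be tested, Gabra2, and it was not called (log2 -0.47, adjusted p = 0.492).

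**Figure D5:**
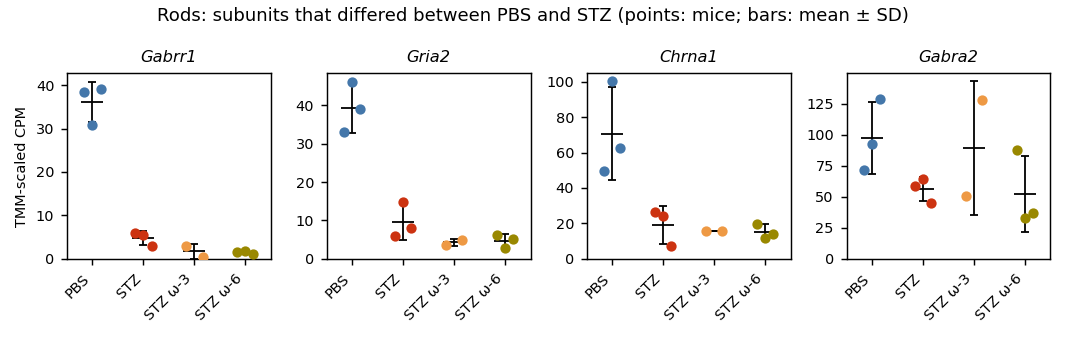
TMM-scaled CPM of 4 called members in rods, 1 point per mouse in the 4 groups, with bars at the mean ± SD. The 3 PBS mice lie above the 3 STZ mice for each gene, on 21 to 58 UMIs per gene in the PBS mice together.

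In cones 0 of 3 members tested were called (20.9% of all genes), and in Müller glia 0 of 5 (11% of all genes). No member had an unadjusted p under 0.05 in either class, and DESeq2 called 0 in both. In cones Chrnb4 was at 151 ± 46.4 scaled CPM in PBS and 166 ± 21.1 in STZ mice. In Müller glia Glrb was at 130 ± 10.4 and 102 ± 10.5 (adjusted p = 0.544), and Gria4 at 105 ± 76.5 and 82.5 ± 11.4 (adjusted p = 0.867).

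Genes that anchor, traffic or modulate these channels were followed in a list of 82 pathway genes. In amacrine cells 29 of 68 tested were called (42.6%, against 38.2% of all genes), 26 higher and 3 lower. In bipolar cells 19 of 47 were called (40.4%, against 44.9% of all genes), 16 higher and 3 lower. Both shares lie near those of all genes. Of the glutamate scaffold genes, 11 of 18 rose and 1 fell in amacrine cells. There 17.9% of all genes were called higher and 20.3% lower. In bipolar cells 4 of 16 scaffold genes rose and 1 fell, against 21.2% and 23.7% of all genes. The other parts of the list had 16.7% to 50.0% called in amacrine cells. Cacng2 and Cacng7, which escort AMPA receptors to synapses, rose from 66.4 ± 23.2 to 231 ± 47.7 and from 41.95 ± 8.58 to 103 ± 13.3 scaled CPM in amacrine cells, and from 6.10 ± 3.94 to 43.2 ± 15.8 and from 33.2 ± 4.48 to 115 ± 7.38 in bipolar cells. Cbln4, a synapse organizer, rose from 29.7 ± 8.56 to 90.1 ± 36.5 in amacrine cells, and Chrm2, a muscarinic receptor, from 5.89 ± 2.71 to 29.2 ± 5.81 in bipolar cells. Cacng2 and Chrm2 had 13 and 12 UMIs in bipolar cells of the PBS mice together. There both could pass the filter on low counts only through the STZ mice, which fixed their direction.

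Genes of the list that fell in both of these classes were Gabarapl2, which takes part in receptor trafficking and autophagy, and Ly6h, a nicotinic modulator. Gabarapl2 fell from 186 ± 12.6 to 107 ± 18.4 scaled CPM in amacrine and from 160 ± 8.55 to 83.3 ± 9.08 in bipolar cells, and Ly6h from 246 ± 64.4 to 171 ± 21.9 and from 140 ± 28.3 to 96.1 ± 2.74. Dlg1 fell in amacrine cells (66.7 ± 11.8 to 43.7 ± 4.03) and Dlg4, which encodes the scaffold PSD-95, in bipolar cells (286 ± 52.9 to 159 ± 28.7). In rods 6 of 24 were called (25%, against 37.2% of all genes), 2 higher (Trak1 and Trak2) and 4 lower. In cones 2 of 13 rose, Nptx1 and Ric3 (15.4%, against 20.9% of all genes), on 7 or 8 UMIs in the PBS mice together. Both could pass the filter on low counts only through the STZ mice, where they were high, which fixed their direction. In Müller glia 1 of 21 rose (4.8%, against 11% of all genes), Homer1, from 25.4 ± 10.8 to 218 ± 35.7 (log2 2.99, adjusted p = 2.69e-05). Homer1 had 21 UMIs in the PBS mice together and likewise could pass only through the STZ mice.

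The NMDA subunits Grin2a and Grin2b were compared as a share, since Grin2a replaces much Grin2b as synapses mature. In bipolar cells Grin2a had 57.1%, 69.2% and 64.0% of their joint UMIs in the PBS mice and 51.5%, 43.5% and 47.1% in the STZ mice. Cone bipolar cells, whose share of bipolar cells was higher in STZ mice as given above, had a Grin2a share of 39.8% (exact binomial interval 31.1 to 49.1) over all mice, against 73.5% (65.3 to 80.7) in ON bipolar cells. These subtype shares rest on 136 joint UMIs in ON bipolar and 123 in cone bipolar cells over all mice. Within ON bipolar cells the groups overlapped, at 80.0%, 66.7% and 84.6% in PBS and 70.6%, 76.9% and 75% in STZ mice. Within cone bipolar cells they also overlapped, at 30.77%, 100% and 41.67% in PBS and 31.25%, 0% and 22.22% in STZ mice. In all bipolar cells they did not overlap, but the exact two-sided permutation test gave p = 0.1, the smallest that 3 against 3 mice allow (adjusted p = 0.267 over 4 comparisons). In amacrine cells the share was 42.3% ± 10.9 in PBS and 29.7% ± 11.5 in STZ mice (exact p = 0.2). With the ω-6 diet it was 23.8% ± 3.40 in amacrine cells against 31.2% ± 2.41 with the ω-3 diet (exact p = 0.2, the smallest that 2 against 3 allow). In bipolar cells the diets gave 66.9% ± 19.2 and 63.3% ± 12.9 (exact p = 1.0). The bipolar shares rest on 7 to 48 UMIs per mouse and the amacrine shares on 76 to 193.

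Between the ω-6 and the ω-3 diet, edgeR called 0 members in any of the 5 classes, with 34 tested in amacrine cells, 26 in bipolar cells, 13 in rods, 12 in cones and 8 in Müller glia. DESeq2 also called 0. The background was 0.0174% of genes in rods (2 genes) and 0.0% in the other 4 classes. At an unadjusted p under 0.05 there were 3 in amacrine cells, 2 in cones, 1 in bipolar cells, 1 in Müller glia and 0 in rods, all lower with the ω-6 diet. Over all genes the amacrine fit had 1327 of 13209, the cone fit 711 of 9230, the bipolar fit 530 of 11779, the Müller fit 305 of 7567 and the rod fit 1187 of 11508 at that level, so counts this small say nothing particular of the members. The 10 rod markers also had lower values with ω-6 in amacrine cells (median log2 -0.86, 9 of 10 at an unadjusted p under 0.05, 0 called), at 810 to 1707 summed CPM against 2396 to 3100 with ω-3, and their part in the values below was not tested. In amacrine cells Gabra2 was at 271 and 379 scaled CPM with ω-3 and 258, 140 and 137 with ω-6 (adjusted p = 0.369). Glra3 was at 37.0 and 46.6 with ω-3 and 28.4, 30.7 and 17.6 with ω-6 (adjusted p = 0.476). Grin2a was at 39.1 and 38.0 with ω-3 and 25.2, 23.3 and 17.6 with ω-6 (adjusted p = 0.429).

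Members at an unadjusted p under 0.05 in the other classes were also lower with ω-6, and none was called. Over all members tested the direction was mixed. Amacrine cells had 13 members higher and 21 lower with ω-6, bipolar cells 14 and 12, and Müller glia 3 and 5. Rods had 3 higher and 10 lower, and cones 1 and 11. In cones Gabra2 overlapped between the diets (adjusted p = 0.609). Gria4 in Müller glia was at 84.9 ± 23.5 with ω-3 and 41.6 ± 4.37 with ω-6 (adjusted p = 0.991). Chrna4 in bipolar cells was at 28.7 ± 0.127 and 16.1 ± 3.59 (adjusted p = 0.975).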

How the data were processed

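The authors deposited 1 table of UMI counts per gene and cell for all 11 mice, which they made from inDrop reads with bcbio-nextgen, umis and Rapmap against GRCm38 (GENCODE). All values were whole numbers, and whether counting used strand is not given in the sources used here. Cells with more than 300 genes detected were kept (20033 of 20067) and clustered after the study's methods in Seurat 5.3.0 (2000 variable genes without the members, 75 principal components, resolution 0.2). Of the members, 13 would have been among the variable genes. A cluster was named where a marker of its class was among its 10 leading genes by fold and at least 3 markers were detected, and 3081 cells stayed unnamed. Rebuilt names can differ from those of the study. Scrublet (scanpy 1.11.5) marked under 0.5% of the cells, too few to have worked, so doublets were kept, and an alternative left out the 5% of cells with the highest scores (1006 cells).

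UMIs were summed per mouse and class, since cells of 1 mouse are not replicates, while the study tested single cells. Sums held 35842 to 1902159 UMIs. The quasi-likelihood test of edgeR 4.0.16 (R 4.3.3, limma 3.58.1) was run with TMM scaling, filterByExpr and only the groups compared, with Benjamini-Hochberg adjustment over all genes tested in a class and a threshold of 0.05. The difference between amacrine and bipolar cells was a class by treatment term with the mouse as a block. DESeq2 1.42.0 was an alternative, as were other scalings, filters, cell cuts, thinning and each mouse left out. Shares were compared by exact permutation over mice (scipy 1.17.1). Scripts were tested on simulated data. Intervals and floors are at 95% and cover counting error only, and an SD over 11 mice includes differences between the groups.

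Named with values were the 5 members highest in each class, those at least 3 times higher there than elsewhere, the called members that did not overlap between groups (up to 6 in each direction and class), and subunits known from the retina. Overlapping or uncalled members and those above 6 were named after their values were seen. Members and lists were chosen with earlier results of these data known. Promoters (RefSeq, GRCm38.p6) were found for 34 of 50 members by symbol and were read for 5 motifs. Some results are not reported here.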

Additional observations from a re-analysis of the deposited data

Results flagged for a closer look

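The STZ change of Grik5 differed between amacrine and bipolar cells by 1.81 on the log2 scale (SE 0.367, adjusted p = 0.00967 by edgeR, joint fit with the mouse as a block). The fall in bipolar cells was seen in all 3 STZ mice, while the amacrine values of PBS and STZ mice overlapped. The call was lost without any 1 STZ mouse (adjusted p = 0.0657 to 0.208).

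For Gabrr1 and Gria2 the STZ mice lay wholly above the PBS mice in another class and wholly below them in rods, and the difference between those classes was not tested. In rods both members could pass the filter on low counts only through the PBS mice, where they were high, so their direction there was fixed by that filter. Gabrr1 differed by 0.48 on the log2 scale in bipolar cells and by -3.003 in rods. Gria2 differed by 0.87 in amacrine cells, 0.74 in bipolar cells and -2.18 in rods. The rod values stand beside summed bipolar markers of 457 to 893 CPM in PBS rods and 193 to 200 in STZ rods, whose part was not tested. No group had 4 or more mice, so single mice were not tested as outliers.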

How the results depend on the processing

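Cluster naming by marker share, scaling by total UMIs, rods without marker UMIs and Ebf3-positive cells alone were chosen after seeing the data. Of the counts of called members and the class levels and shares, 226 values under an alternative stayed within their limits, 17 moved and 2 reversed. Of the single members named, 356 values kept their side of the threshold and 43 fell short of it, all in their first direction. The 7 calls in rods became 13 with all 4 groups in 1 fit, 14 with clusters named by marker share added, 3 with cells of more than 500 genes, 2 with members kept for clustering, 0 when thinned to equal depth and 0 without bipolar or amacrine marker UMIs, where 1 member was left to test in each of the last 2. Without 1 mouse each they were 6 to 10. The 7 amacrine calls became 4 to 9 without 1 mouse, and were 4 in GABAergic and 4 in Ebf3-positive cells alone. The 10 bipolar calls became 8 to 10 without 1 mouse and 5 in cone bipolar cells alone. The 1 member whose change differed between amacrine and bipolar cells became 2 with no filter and 0 to 2 without 1 mouse. The Grin2a share of bipolar cells, 3.57 percentage points higher with ω-6, reversed without STZ ω-3 replicate 2 (-5.55) and without STZ ω-6 replicate 1 (-4.66), and ran from -5.55 to 14.1 without 1 mouse each. Same-numbered mice deviated together with r of -0.02 to 0.143 for PBS and STZ and 0.041 to 0.276 for the diets, so their numbers were not taken as pairs. With the replicate block 1 member was called between the diets in amacrine cells (Gabra2, lower with ω-6), no other count moved by over 1.5 times, and Gabra2 in rods was not called with STZ (adjusted p = 0.0639). Where no cause is named it was not tested. Cones without marker UMIs could not be fitted for STZ and PBS.

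Depth limits the rarer members: 11 of the 50 had too few UMIs to be tested in any class with STZ. Rods and cones of PBS mice were the thinnest, and every STZ change rests on 3 PBS libraries that stand apart, so it could not be repeated without them.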
